A study of Mus musculus with 6 samples.

Results

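Genes whose exons form 1 uninterrupted stretch of the genome were compared between mouse blastocysts with and without knockdown of Eif4a3. Zygotes had been injected with a non-targeting siRNA (siRNA-NC, here NC) or with siRNA against Eif4a3, and blastocysts were collected on day 5. Each group held 3 libraries of 5 embryos each, made by Smart-seq2 from polyadenylated RNA and read as pairs of 150 bases. The strain and the number of donor animals were not given in the sources used here, and nothing in the labels states that the 3 libraries of a group came from separate injections, so p-values measure the spread between these libraries only.

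The members are single-block genes. In the deposited exon table, repeated exon lines were dropped and overlapping exons of each gene were merged into blocks. Genes were taken that had exactly 1 block on chromosomes 1 to 19 and at least 50 counts over the 6 libraries, and that are no histone genes. Of 55378 genes in the table, 22463 had 1 block and 20268 of these lay on the autosomes. With 76 histone genes left aside, 12061 of those had no count, 6390 had 1 to 49 counts, and 1741 remained. The members were chosen by their total count over the 6 libraries, so their being detected is no result. Levels are given in CPM, counts scaled to the effective size of each library as defined in the processing section. At the limit, 9330121J05Rik and AC124459.1 entered with 50 counts. Their mean levels were 0.303 and 0.441 CPM in NC and 0.664 and 0.489 CPM in the knockdown. The genes 4930528J11Rik and D530018E20Rik stayed out with 49 counts, at 0.771 and 0.640 CPM in NC against 0.193 and 0.349 CPM in the knockdown.

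A single block is not the same as an RNA without a splice junction. The label of the set speaks of genes without splice junctions, and the annotation went against this for some of them. Of the 1741 members, 98 had separate exons that were joined only through a longer exon line covering the intron, among them Mt1, Snhg1, Snhg12, Dynll1, Pgp and Malat1. An annotated transcript of 2 or more exons existed for 110 members, and 1628 had 1-exon transcripts only. The members are therefore called single-block genes here.

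The protein made by Eif4a3 is a DEAD-box RNA helicase and a core subunit of the exon junction complex, which the spliceosome deposits on messenger RNA just upstream of exon-exon junctions. The complex takes part in export, localization and translation of spliced messenger RNA, and in nonsense-mediated decay, which it triggers where a stop codon lies well upstream of a junction. Transcripts from intronless genes receive no such deposit from splicing. Many intronless genes are retrocopies, which arise when a spliced messenger RNA is reverse transcribed and inserted elsewhere in the genome. Those that have lost the reading frame are called processed pseudogenes, and those that have kept it are called retrogenes. Other members are ancestral intronless coding genes, small nucleolar RNAs (snoRNAs), which guide chemical modification of ribosomal RNA, and microRNA precursors.

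By type, 757 members were annotated as processed pseudogenes, 319 as protein coding, 246 as transcript models still awaiting experimental testing (TEC), 215 as small RNAs, 150 as long non-coding RNAs and 50 as other pseudogenes. Only 765 members overlapped no other gene. A further 368 overlapped an exon of another gene on the opposite strand and 244 on the same strand, and 217 and 147 lay in an intron of another gene on the same and on the opposite strand. Their median exon length was 853 bases, against 3887.5 bases for the 14062 multi-block genes within the same limits. The median level per length was 2.50 CPM per kilobase for members and 2.41 for multi-block genes. The counting command names no option for read pairs that align to several places, but 4 pairs of members at separate places held the same count in each of the 6 libraries. Rps19-ps1 and Rps19-ps2, both on chromosome 14, each had 6942 counts, and the others were Gm42818 with Amd-ps5, Rpl7a-ps2 with Gm19843, and Gm6740 with Gm6755. At least there, a pair was counted at more than 1 place, so copies of near-identical sequence can share counts with one another and with a spliced relative, and they are not independent measurements. Another 2 pairs of members with the same counts, under the symbols Snord80 and Gm23925, overlap each other. The counting used a strand setting although the Smart-seq2 protocol does not mark strand, so reads of overlapping genes on either strand cannot be told apart.

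The sequences of the copies named below show how close they are to one another and to their spliced relatives. All are read 5′ to 3′ from annotated transcripts of the GRCm38 build. The first set gives the first 90 coding bases of 4 intronless genes of the Eif1a-like cluster on chromosome 12, whose values are given further on. Capitals mark bases that differ from the first sequence.

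Gm8332, chr12:88250011-88250100, minus strand: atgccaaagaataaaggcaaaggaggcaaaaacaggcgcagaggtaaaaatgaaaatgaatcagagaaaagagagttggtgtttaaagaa
Gm2022, chr12:87895370-87895459, plus strand: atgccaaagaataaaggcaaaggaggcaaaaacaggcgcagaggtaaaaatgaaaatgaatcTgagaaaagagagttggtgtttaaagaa
Gm6803, chr12:88018682-88018771, minus strand: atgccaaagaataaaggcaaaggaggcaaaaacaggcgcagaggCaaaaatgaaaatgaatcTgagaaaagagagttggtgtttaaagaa
Gm2035, chr12:87919768-87919857, minus strand: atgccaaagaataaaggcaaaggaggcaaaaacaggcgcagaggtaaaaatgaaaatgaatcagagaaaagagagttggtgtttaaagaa

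In this stretch Gm2035 had 0, Gm2022 1 and Gm6803 2 differences from Gm8332. The next sequences set retrocopies under their spliced relative across a former junction. Each is 60 bases long, and in the spliced gene the junction lies after base 30. Capitals mark bases that differ from the spliced gene.

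Gapdh, spliced across chr6:125163011-125163168, minus strand: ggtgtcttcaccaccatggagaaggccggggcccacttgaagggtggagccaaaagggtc
Gm13394, chr2:28934259-28934318, minus strand: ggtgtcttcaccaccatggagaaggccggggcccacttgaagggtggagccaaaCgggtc
Gm5335, chr7:72989803-72989862, minus strand: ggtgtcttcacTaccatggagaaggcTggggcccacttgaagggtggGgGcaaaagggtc
Kxd1, spliced across chr8:70509353-70509550, minus strand: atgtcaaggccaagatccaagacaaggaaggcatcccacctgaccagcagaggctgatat
Gm12617, chr11:60692943-60693002, minus strand: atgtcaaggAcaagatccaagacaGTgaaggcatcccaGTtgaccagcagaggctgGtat
Gm11517, chr11:96795693-96795752, minus strand: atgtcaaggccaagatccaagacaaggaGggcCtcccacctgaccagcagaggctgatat
Tdgf1, spliced across chr9:110943224-110944220, minus strand: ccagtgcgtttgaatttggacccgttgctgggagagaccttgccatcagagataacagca
Tdgf1-ps1, chr16:3730553-3730612, plus strand: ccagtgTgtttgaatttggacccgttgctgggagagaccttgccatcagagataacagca
Rpl10, spliced across chrX:74271689-74271829, plus strand: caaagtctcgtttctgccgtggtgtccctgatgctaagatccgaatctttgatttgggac
Rpl10l, chr12:66284246-66284305, minus strand: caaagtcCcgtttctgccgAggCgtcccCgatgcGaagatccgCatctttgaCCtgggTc

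Within these windows the copies carried 1 (Gm13394), 4 (Gm5335), 6 (Gm12617), 2 (Gm11517), 1 (Tdgf1-ps1) and 9 (Rpl10l) differences, and each ran through the former junction without a gap. Counting can separate a diverged copy such as Rpl10l from its relative, whereas a copy such as Gm13394 or Tdgf1-ps1 shares long identical runs with it.

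The libraries held 15607227 to 18697754 counts over all genes. The knockdown was seen in the counts of Eif4a3 itself, which stood at 302, 255 and 202 CPM in NC and at 16.03, 36.2 and 56.2 CPM in the knockdown (253 ± 49.97 and 36.1 ± 20.1 CPM, mean ± SD, n = 3, as for all such pairs; log2 fold change -2.81, SE 0.441, edgeR quasi-likelihood adjusted p = 0.00512). Summed markers of blastocyst lineages ranged from 2451 to 5840 CPM in NC and from 682 to 2354 CPM in the knockdown, and 5 of the 11 tested were lower and 0 higher. Summed markers were at most 1.18 CPM for cumulus cells (5 of 8 listed genes had no count in any library), 40.9 for sperm and 12.7 for fibroblasts in any library. The highest sperm sum was in NC replicate 1, where Odf2 alone stood at 39.9 CPM. No other listed sperm gene exceeded 2.41 CPM in any library. Summed blood markers ranged from 8.07 to 50.3 CPM in NC and from 4.36 to 8.55 CPM in the knockdown, with 2 of 5 tested lower. The part of cell composition in the results was not tested.

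Single-block genes took a small and similar share of the counts in both groups. They held 1.88, 2.29 and 2.42% of all counts in the NC libraries and 1.88, 2.46 and 2.14% in the knockdown libraries. The means were 2.20 ± 0.281% and 2.16 ± 0.290%, and the ranges overlapped almost wholly. The counts were concentrated, with 35.5% of them in 10 members, whereas 403 members lay under 1 CPM in both groups. At least 1 count was found for 1681, 1695 and 1691 members in NC and for 1731, 1731 and 1724 in the knockdown. Of the members, 27 had no count in any NC library, and 1 had none in any knockdown library. Processed pseudogenes took 0.397, 0.539 and 0.570% of all counts in NC and 0.549, 0.719 and 0.622% in the knockdown, and these ranges overlapped. Small RNAs took 0.393, 0.442 and 0.492% in NC and 0.306, 0.435 and 0.353% in the knockdown, again with overlap.

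More members were called higher than lower in the knockdown. Of the 1741 members, 1561 had enough counts to be tested, and 127 of these were higher (8.14%) and 32 lower (2.05%) at an adjusted p under 0.05 in edgeR's quasi-likelihood test, adjusted over all 15619 genes tested. Over all genes tested the background was 7.52% higher and 5.56% lower. The share of members called higher was thus close to the background and the share called lower was smaller than it. The median log2 fold change, knockdown minus NC, was 0.08 over the tested members and 0.03 over all genes tested. The 2 groups of libraries did not overlap for 125 of the 127 higher members and for 32 of the 32 lower ones. A member that reached the count filter only through the group in which it is high had to differ, and 88 of the 127 higher members averaged under 1 CPM in NC.

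Genes of 2 or more blocks with the nearest total count and exon length to each tested member served as a second comparison. Of these 1561 genes, 196 were higher (12.6%) and 48 lower (3.08%), with a median log2 fold change of 0.40 (quartiles -0.41 and 1.41). The members' quartiles were -0.47 and 0.78. The pairing by count left median totals of 199 and 202 counts and median levels of 1.65 and 1.46 CPM in NC for members and comparison genes, with median lengths of 847 and 989 bases. Among genes with a mean of at least 1 CPM in NC, a limit chosen after seeing the data, 39 of 1069 members were higher and 32 lower, against 60 and 48 of 965 comparison genes and 682 and 866 of 13304 genes overall. The excess of higher over lower calls among members was thus mostly made up of genes at low NC levels, and the comparison genes showed 196 higher calls to 48 lower. No test was made of the difference between the sets.

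**Figure D1:**
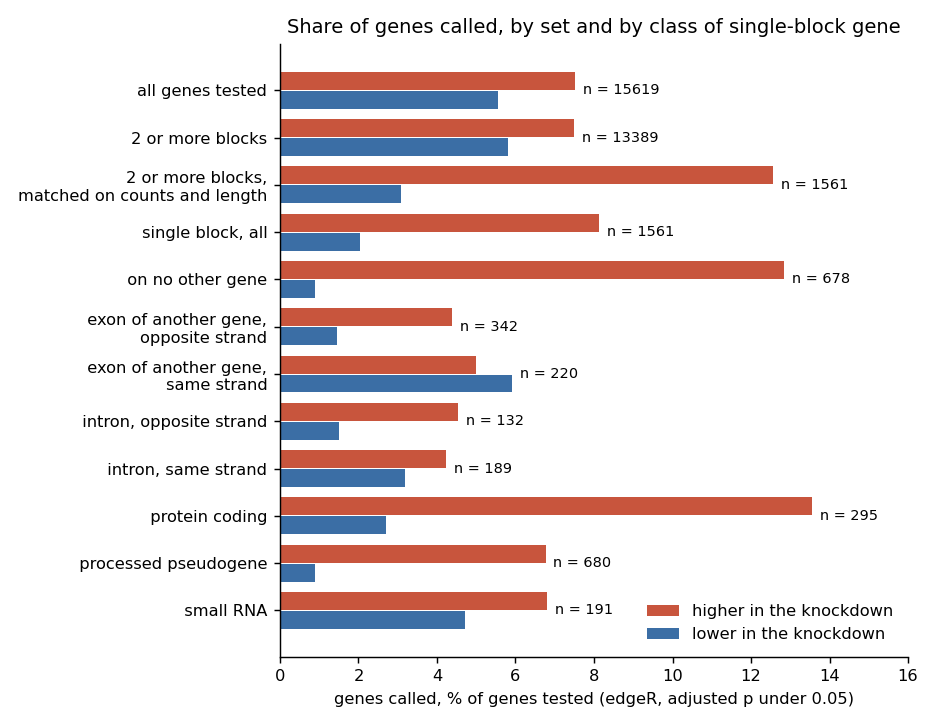
Percent of tested genes called higher (upper bar of each pair) or lower (lower bar) in the knockdown by edgeR, for all genes tested, multi-block comparison genes, single-block genes and subsets of these by position and type. Bars start at 0. Single-block genes were called higher in 8.14% and lower in 2.05%, and the comparison genes in 12.6% and 3.08%.

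The calls rested on few libraries. Of the 127 higher members, 52 stayed past the threshold in all 6 fits that left out 1 library, 25 lost it in 1 to 3 fits and 50 in 4 to 6. Of the 32 lower members, 3 stayed in all 6 fits, 10 lost the call in 1 to 3 and 19 in 4 to 6. Without 1 library the number of higher members ranged from 66 (without NC replicate 2) to 136 (without knockdown replicate 1), and was 71 without NC replicate 3, 74 without NC replicate 1 and 80 without knockdown replicate 2. The number of lower members was 10 without NC replicate 2 or knockdown replicate 3, 11 without NC replicate 3, 12 without NC replicate 1, 15 without knockdown replicate 2 and 35 without knockdown replicate 1. Below, a gene whose call is said to hold in every fit kept it in all 6 of these, and for other genes the fits that keep or lose it are named.

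By position, the calls were split unevenly. Of 678 tested members that overlap no other gene, 87 were higher (12.8%) and 6 lower (0.885%), with a median log2 fold change of 0.21. Of 220 tested members on an exon of another gene in the same strand, 11 were higher (5.00%) and 13 lower (5.91%), with a median of -0.14. Members on an exon in the opposite strand gave 15 higher and 5 lower of 342, and those in introns gave 8 and 6 of 189 on the same strand and 6 and 2 of 132 on the opposite strand. By type, protein-coding members gave 40 higher (13.6%) and 8 lower (2.71%) of 295, with a median of 0.24. Processed pseudogenes gave 46 higher (6.76%) and 6 lower (0.882%) of 680, other pseudogenes 10 higher and 0 lower of 40, and small RNAs 13 higher and 9 lower of 191. Long non-coding members gave 9 higher and 0 lower of 133, and TEC models 9 and 9 of 219. These shares include 24 higher calls in the families of related copies described further on. All 24 lay in members that overlap no other gene, and most in protein-coding members or other pseudogenes. Such copies can share read pairs and are not independent measurements. Shares by position and type were not computed without them.

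Of the intronless developmental regulators, Nanos1 rose and Sox2 fell. Nanos1 (chr19:60755987-60759914, plus strand, no overlapping gene), a zinc-finger translational repressor known from germ cells, stood at 0.497, 1.26 and 0.656 CPM in NC and at 4.03, 3.88 and 5.30 CPM in the knockdown. The groups did not overlap, and the log2 fold change was 2.45 (SE 0.557, edgeR adjusted p = 0.0196). The call was lost without NC replicate 1, NC replicate 3 or knockdown replicate 3, with adjusted p up to 0.068. Sox2 (chr3:34650405-34652461, plus strand, in an intron of Sox2ot) encodes the HMG-box factor that marks the inner cell mass and epiblast. It stood at 3.38, 2.19 and 3.28 CPM in NC and at 0.281, 1.09 and 0.301 CPM in the knockdown, again without overlap. Its log2 fold change was -2.41 (SE 0.684, edgeR adjusted p = 0.0449), and of the 6 fits that leave out a library the call passed only without knockdown replicate 2, with adjusted p up to 0.120. In these whole-embryo libraries, fewer cells of a type and less RNA per cell cannot be told apart. Zfp830, a zinc-finger gene, had a log2 fold change of -0.09 (adjusted p = 0.915). In all, 1 of the 5 tested members of the list of developmental transcription factors and Nanos genes was higher and 1 lower in edgeR. An unadjusted p under 0.05 was reached by 3 of the 5, and DESeq2 called Foxe1, Nanos1 and Sox2.

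In edgeR 0 of 6 tested members of the AP-1 and C/EBP list, intronless genes that respond quickly to signals, were called, and their median log2 fold change was 0.63. An unadjusted p under 0.05 was reached by 2 of them, and DESeq2 called Cebpb (adjusted p = 0.0283) and Jund (adjusted p = 0.0489). Cebpb, a basic leucine zipper factor, stood at 3.33, 1.33 and 1.12 CPM in NC and at 6.33, 5.51 and 5.42 CPM in the knockdown, so the groups did not overlap, but the log2 fold change of 1.57 (SE 0.530) missed the threshold (edgeR adjusted p = 0.0779). Jund ranged from 3.28 to 30.3 CPM in NC and from 2.83 to 6.72 CPM in the knockdown (log2 fold change -1.69, adjusted p = 0.123). The immediate early gene Ier2 had a log2 fold change of 0.77 (adjusted p = 0.263), with overlapping groups.

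Claudins are tight-junction proteins, and the trophectoderm of a blastocyst is the epithelium they seal. Cldn4 (chr5:134945119-134946934, minus strand) was one of the most abundant coding members, at 799, 638 and 519 CPM in NC against 607, 241 and 199 CPM in the knockdown. The groups overlapped through knockdown replicate 1, and the log2 fold change of -0.90 missed the threshold (edgeR adjusted p = 0.187). Without that library the adjusted p was 0.016. Cldn3 and Cldn9 were far less abundant and had log2 fold changes of -0.10 (adjusted p = 0.930) and 0.09 (adjusted p = 0.944). Thus edgeR called 0 of the 3 claudin members, as did DESeq2, and 0 had an unadjusted p under 0.05.

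The metallothionein Mt1 (chr8:94179082-94180327, plus strand), which binds zinc and copper, was the most abundant member to fall. It stood at 598, 771 and 1024 CPM in NC and at 88.0, 303 and 293 CPM in the knockdown (797 ± 214 and 228 ± 121 CPM). Every knockdown library lay below every NC library, and the log2 fold change was -1.81 (SE 0.458, edgeR adjusted p = 0.0298). Of the leave-one-out fits, only those without NC replicate 1 or knockdown replicate 1 kept the call, with adjusted p up to 0.0887. Its neighbour Mt2, which has 3 blocks and is no member, moved alongside from 632 to 217 CPM (log2 fold change -1.54, adjusted p = 0.0478). Mt1 has annotated introns and is a member only because a longer exon line spans them.

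Other coding members that fell were a cytoskeletal gene and a receptor gene. Dynll1, the dynein light chain LC8, stood at 174, 191 and 387 CPM in NC and at 58.5, 121 and 105 CPM in the knockdown (log2 fold change -1.40, edgeR adjusted p = 0.0440). Its call passed only without NC replicate 1, with adjusted p up to 0.145. The short-chain fatty acid receptor gene Ffar3 stood at 15.3, 10.7 and 20.3 CPM in NC and at 3.61, 0.606 and 0.0602 CPM in the knockdown (-3.40, SE 0.918, edgeR adjusted p = 0.0372). It passed only without knockdown replicate 1 or 3, with adjusted p up to 0.118. For both genes the groups did not overlap.

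Retrogenes moved in both directions. Rpl10l (chr12:66283379-66284401, minus strand), an intronless copy of the gene for ribosomal protein L10 known for its role in male meiosis, stood at 23.7, 37.8 and 26.3 CPM in NC and at 103, 117 and 121 CPM in the knockdown (29.3 ± 7.48 and 114 ± 9.68 CPM). The groups were far apart, and the log2 fold change of 1.96 (SE 0.293, edgeR adjusted p = 0.00471) held in every fit. Its spliced parent Rpl10, 84.3% identical over the aligned bases, went from 1189 to 807 CPM (-0.56, adjusted p = 0.325). Tpm3-rs7, a copy of the tropomyosin gene Tpm3, stood at 88.8, 77.6 and 61.6 CPM in NC and at 28.2, 30.4 and 39.1 CPM in the knockdown. It fell by 1.22 on the log2 scale (SE 0.289, edgeR adjusted p = 0.0227), and lost the call without NC replicate 1, NC replicate 2 or knockdown replicate 2 (adjusted p up to 0.0756). Tpm3 itself, 99.1% identical, went from 288 to 139 CPM (-1.06, adjusted p = 0.113), so that copy and parent moved alike in direction, and only the copy was called. Of 8 tested members of the list of other retrogenes, 1 was higher and 1 lower, with a median log2 fold change of 0.70. Chmp1b, an ESCRT-III subunit gene, stood at 39.7 ± 1.13 CPM in NC against 70.2 ± 29.8 CPM in the knockdown (0.82, adjusted p = 0.132). The imprinted retrogenes Mcts2 and Zrsr1 had log2 fold changes of 0.53 (adjusted p = 0.443) and 0.30 (adjusted p = 0.800), and neither was called by edgeR or DESeq2, with 0 of them at an unadjusted p under 0.05.

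Several single-block coding genes of low or middling abundance rose, of which Pgp and Tmem185b have annotated introns under a longer exon line. Pgp, a phosphatase that clears phosphoglycolate, stood at 27.8, 32.5 and 28.9 CPM in NC against 58.5, 61.4 and 115 CPM in the knockdown (log2 fold change 1.40, SE 0.334, edgeR adjusted p = 0.0236). Its call passed only without knockdown replicate 1 or 2, with adjusted p up to 0.0822. Znhit2, a zinc-finger HIT protein gene, stood at 6.47, 7.57 and 5.64 CPM in NC and at 14.9, 18.4 and 19.5 CPM in the knockdown (1.42, adjusted p = 0.0236). Tmem203, a gene for an endoplasmic reticulum membrane protein, had a log2 fold change of 1.65 (adjusted p = 0.0294) and Eid2b, a gene of the EID family of transcription inhibitors, one of 2.14 (adjusted p = 0.0264). The same was seen for Tescl, a relative of the tescalcin gene Tesc (2.12, adjusted p = 0.0314). For all 4 of these genes the groups did not overlap, and the call passed only without knockdown replicate 1, with adjusted p up to 0.0804, 0.0899, 0.0782 and 0.102 in turn. Rnf113a2, a RING-finger gene, had a log2 fold change of 1.64 (adjusted p = 0.0275), kept only without NC replicate 2 or knockdown replicate 1 (adjusted p up to 0.0902). Tmem185b, a membrane protein gene, had one of 1.40 (adjusted p = 0.0279), kept only without NC replicate 3 or knockdown replicate 3 (adjusted p up to 0.124).

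The signalling and housekeeping lists held few members, and edgeR and DESeq2 called 0 of them, with 0 at an unadjusted p under 0.05. Of the G protein-coupled receptors on the list, Gpr27 had a log2 fold change of 1.29 (edgeR adjusted p = 0.213), and Lpar6 was near 0.7 CPM in both groups. The receptor gene Ffar3, called lower above, was not on the list. Among signalling adaptors, Rap2b, a Ras-family GTPase gene, had a log2 fold change of 0.68 (adjusted p = 0.242), Rhob 0.60 (adjusted p = 0.642) and Frat1 -0.08 (adjusted p = 0.939). Among 5 housekeeping members, Pop7, which encodes a subunit of RNase P, stood at 34.3 ± 13.3 and 39.1 ± 17.2 CPM (0.19, adjusted p = 0.794). Kti12 and Thap11 had log2 fold changes of 0.17 and -0.18, with adjusted p of 0.791 and 0.832. The mitochondrial co-chaperone gene Dnajc30 went from 19.0 ± 3.46 to 17.4 ± 4.52 CPM (-0.13, adjusted p = 0.830).

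**Figure D2:**
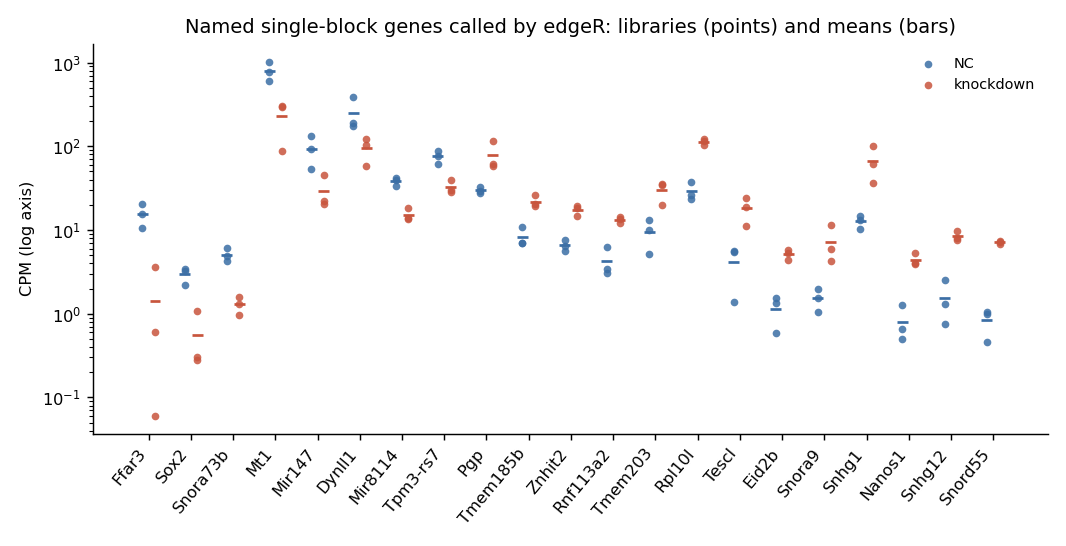
Level in CPM on a log axis for named single-block genes, with 1 point per library, NC and knockdown side by side, for those whose call passed in at least 1 of the 6 fits that left out a library. Rpl10l shows the knockdown libraries at 103 to 121 CPM and NC at 23.7 to 37.8 CPM, and Mt1 shows the reverse order.

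Among non-coding members, the snoRNA host genes Snhg1 and Snhg12 rose. Such hosts carry snoRNAs in their introns, and their own spliced RNA is a known target of nonsense-mediated decay. Snhg1 (chr19:8723475-8726443, plus strand) stood at 10.2, 13.1 and 14.8 CPM in NC and at 36.3, 100.2 and 61.8 CPM in the knockdown (12.7 and 66.1 CPM). The groups did not overlap, and the log2 fold change of 2.38 (SE 0.402, edgeR adjusted p = 0.00643) held in every fit. Snhg12 (chr4:132308623-132311024, plus strand) stood at 0.746, 2.52 and 1.31 CPM in NC against 7.50, 7.995 and 9.81 CPM in the knockdown, a log2 fold change of 2.47 (SE 0.528, adjusted p = 0.0154). It lost the call only without NC replicate 3 (adjusted p = 0.0578). Both hosts have annotated introns that a longer exon line covers. The snoRNA Snora9 lies on an exon of the host Snhg15, which has several blocks and went from 44.1 to 512 CPM (3.54, adjusted p = 0.00165). Snora9 itself stood at 1.54, 1.06 and 1.97 CPM in NC and at 5.90, 11.4 and 4.27 CPM in the knockdown (adjusted p = 0.0235), and passed only without knockdown replicate 1 or 3, with adjusted p up to 0.0957. Gm26003, a snoRNA gene of the host Snhg17 named after its values were seen, stood at 0.448, 0.664 and 0.459 CPM in NC and at 3.98, 4.79 and 4.15 CPM in the knockdown (3.03, adjusted p = 0.00743), with Snhg17 at a log2 fold change of 3.65.

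The snoRNA gene Snord55 also rose. It stood at 1.04, 0.465 and 0.984 CPM in NC and at 7.12, 6.72 and 7.46 CPM in the knockdown, so that the groups did not overlap. The log2 fold change was 3.08 (SE 0.503, edgeR adjusted p = 0.00581) and held in every fit. At 79 bases it is shorter than a read, as are 217 members under 150 bases (median 92 bases), of which 132 lie on an exon of another gene in the same strand and 39 on one in the opposite strand. A full-length read over such a member also covers bases outside it. Of 189 tested members of this length, 14 were higher and 8 lower.

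Longer non-coding RNAs gave 1 call among 5 tested members of their list. Rn7sk, the 7SK RNA that restrains the elongation factor P-TEFb, stood at 0.249, 0.664 and 0.459 CPM in NC against 1.41, 1.39 and 7.16 CPM in the knockdown (log2 fold change 2.86, SE 0.821, edgeR adjusted p = 0.0462). The call passed only without knockdown replicate 1, with adjusted p up to 0.240. Since 7SK is not polyadenylated, these libraries measure only what the poly(A) selection carried over. Malat1, a nuclear long non-coding RNA, ranged from 301 to 989 CPM in NC and from 342 to 760 CPM in the knockdown, with overlap (-0.16, adjusted p = 0.850). Rn7s1, a 7SL RNA gene, was at 0.375 and 0.858 CPM (1.20, adjusted p = 0.279).

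All 9 lower small RNA members share exon bases with another gene, and that gene was lower for 5 of them, higher for 0 and not called for 4. Actg1 is the overlapped gene of 2 of the 5. Mir147 (chr2:122640803-122640881, plus strand) is a microRNA precursor inside an exon of AA467197. Its 5p arm has this mature sequence in the RefSeq annotation of GRCm38.p6, with the seed, bases 2 to 8, in capitals.

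mmu-miR-147-5p, chr2:122640814-122640837, plus strand: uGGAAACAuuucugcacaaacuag

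Counts over the precursor stood at 53.7, 92.3 and 134 CPM in NC against 20.7, 22.3 and 45.6 CPM in the knockdown, with no overlap. The log2 fold change was -1.66 (SE 0.425, edgeR adjusted p = 0.0308), and the call passed only without NC replicate 1 or knockdown replicate 3 (adjusted p up to 0.108). AA467197 went from 322 to 110 CPM (-1.54, adjusted p = 0.0385). These libraries do not capture mature microRNAs, so the values describe the longer transcript. Mir8114, on an exon of the glutamine synthetase gene Glul, stood at 39.1, 41.3 and 33.5 CPM in NC and at 13.96, 13.4 and 18.4 CPM in the knockdown (-1.31, adjusted p = 0.0199), and Glul had a log2 fold change of -1.04 (adjusted p = 0.0347). Its call was lost without NC replicate 1, NC replicate 2 or knockdown replicate 2, with adjusted p up to 0.0753. Snora73b, opposite an exon of Gm17300, had a log2 fold change of -1.96 (adjusted p = 0.0264) and passed only without knockdown replicate 1 (adjusted p up to 0.0957). Gm17300 had one of -1.38 (adjusted p = 0.061).

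The 5 members with the highest level per length all lay on or opposite exons of other genes. Gm22133, on an exon of the ferritin light chain gene Ftl1, had the highest level at 14003 CPM per kilobase. Gm27597 on Rpl19, Gm23419 on Actg1, Mir5121 on Gm45713 and Gm10252 opposite Ftl1 followed with 5813, 5218, 2663 and 2157 CPM per kilobase. Their changes lay close to those of the overlapped genes. Gm22133 had a log2 fold change of -0.38 (edgeR adjusted p = 0.557), Gm10252 one of -0.32 (adjusted p = 0.613) and Ftl1 one of -0.36. Gm27597 and Mir5121 had log2 fold changes of 0.36 (adjusted p = 0.552) and 0.31 (adjusted p = 0.644), beside 0.38 for Rpl19 and 0.31 for Gm45713. Gm23419 stood at 849, 473 and 614 CPM in NC and at 294, 194 and 206 CPM in the knockdown (-1.48, SE 0.327, adjusted p = 0.0175), beside -1.51 (adjusted p = 0.0178) for the cytoplasmic actin gene Actg1. The call for Gm23419 was lost without NC replicate 1, knockdown replicate 2 or knockdown replicate 3, with adjusted p up to 0.069.

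Over all lower members, the genes they share sequence or position with moved the same way or were not called. Each member was given 1 partner: a gene sharing exon bases, or else a spliced relative, or else the host of its intron. Among the 32 lower members the partner shared exon bases for 18, was a spliced relative for 4 and an intron host for 5. For 5 there was none of these. Of the 24 such partner genes that were tested, 13 were lower and 0 higher. Of the 127 higher members, 26 share exon bases, and of 25 tested partners 15 were higher and 0 lower. A further 72 had a spliced relative as partner, of which 64 were tested, with 20 higher and 3 lower. Among members not called, 45 of 1162 tested partners were higher and 44 lower. Of these, partners sharing exon bases gave 35 higher and 14 lower of 483, and spliced relatives 7 and 23 of 598. Genes that share exon bases or near-identical sequence can count the same read pairs, so such partners are not independent of the member. As a description across genes that share reads and libraries, the log2 fold changes of member and partner had r = 0.74 over 326 pairs on opposite exons and 0.64 over 198 pairs on exons of the same strand. For members in introns, r with the host was 0.03 over 90 pairs on the opposite strand and 0.25 over 150 on the same strand. The median absolute differences in log2 fold change were 0.331 and 0.313 on exons and 0.865 and 0.700 in introns.

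Among genes without a gene name, the largest falls with a level of at least 5 CPM were all in genes that share exon bases with another gene. Gm42793, on an exon of the osteopontin gene Spp1, stood at 9.65, 9.83 and 42.0 CPM in NC against 1.41, 1.45 and 0.602 CPM in the knockdown (log2 fold change -4.14, SE 0.693, edgeR adjusted p = 0.00631), and the call held in every fit. Spp1 went from 567 to 31.7 CPM (-4.16). Gm49759, on an exon of the pyruvate kinase gene Pkm, stood at 19.8, 8.03 and 2.49 CPM in NC and at 2.25, 1.09 and 0.542 CPM in the knockdown (-2.95, adjusted p = 0.0338), beside -2.91 for Pkm. It passed only without NC replicate 3 or knockdown replicate 1, with adjusted p up to 0.135. The coding gene 4930548H24Rik had a log2 fold change of -2.21 (adjusted p = 0.0325), kept only without NC replicate 1 or knockdown replicate 2 (adjusted p up to 0.0996), beside -0.97 (adjusted p = 0.127) for 4930566F21Rik on the opposite strand. Gm22801, on the actin pseudogene Gm12715, had one of -2.08 (adjusted p = 0.0245) beside -1.63 (adjusted p = 0.017), kept only without NC replicate 1 or knockdown replicate 1 (adjusted p up to 0.0833).

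Members inside the introns of Auts2, a gene linked to neural development, fell without a called change of that gene. They were singled out after their values were seen. Gm43187 (chr5:132490343-132492739, minus strand) stood at 2.09, 2.39 and 2.30 CPM in NC and had no count in the 3 knockdown libraries, so it was at least 40.7-fold lower against a floor of 3 counts over the group (edgeR adjusted p = 0.00475), and the call held in every fit. Gm43018 was lower by a ratio of 72.4 in pooled counts (95% counting interval 12.6 to 2902, adjusted p = 0.0111), and lost its call without NC replicate 1 (adjusted p = 0.0528). Gm42992 had a log2 fold change of -4.36 (adjusted p = 0.0382) and passed only without knockdown replicate 2 (adjusted p up to 0.140). C230071H17Rik had one of -4.66 (adjusted p = 0.019), lost without NC replicate 1 or knockdown replicate 3 (adjusted p up to 0.0904). The exons of Auts2 went from 6.89 to 3.99 CPM (-0.79, adjusted p = 0.337).

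Some of the large rises among single-block genes lay in clusters of related copies. These families were drawn up after their values were seen. On chromosome 12, between positions 87494721 and 88250100 of GRCm38, 12 members were copies of genes related to Eif1a, which encodes the translation initiation factor that scans for the start codon. All 12 were tested and called higher, with log2 fold changes from 3.60 to 10.05. Their summed level was 2.69, 2.72 and 1.97 CPM in NC against 68.3, 204 and 212 CPM in the knockdown (2.46 ± 0.425 and 161 ± 80.7 CPM), from 125 and 8349 counts. No copy exceeded 1.39 CPM in any NC library, and none was under 0.562 CPM in any knockdown library.

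Gm8332 was the most abundant copy, at 0.348, 1.39 and 0.394 CPM in NC against 23.1, 46.1 and 59.7 CPM in the knockdown (log2 fold change 5.93, SE 0.636, edgeR adjusted p = 0.00114). Gm2022 had a mean of 0.138 CPM in NC against 11.5 CPM in the knockdown (adjusted p = 0.000837), and Gm2035 had 0.315 and 15.6 CPM (adjusted p = 0.00495). Gm6803 had 1 count in NC, in the third library, and stood at 6.47, 47.7 and 31.9 CPM in the knockdown, a ratio of 1347 in pooled counts (95% counting interval 241 to 53257, adjusted p = 0.00121). The pseudogene Gm8607 also had 1 NC count and stood at 7.97, 25.9 and 19.2 CPM in the knockdown (ratio 848, interval 152 to 33518, adjusted p = 0.000752). These calls held in every fit. Gm48388 lost its call without NC replicate 2 (adjusted p = 0.0511), and Gm48389 kept it only without NC replicate 2 or knockdown replicate 1 (adjusted p up to 0.089).

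The 9 copies of 435 bases were 95.82 to 98.84% identical to one another over 36 pairs and 93.74 to 95.14% identical to the messenger RNA of Eif1a. Spliced genes of the same cluster, which are no members, rose as well. Gm2016 went from 1.41 to 49.9 CPM (5.14, edgeR adjusted p = 0.00188) and Gm5662 from 1.88 to 113 CPM (5.92). Gm8300 went from 0.467 to 37.8 CPM (6.36) and BB287469 from 0.0993 to 17.3 CPM (7.35). Single-block and spliced copies are 97.0 to 99.5% identical, so a read pair can have been counted at several of them, in the sums above too. How many separate copies were transcribed was not tested. Eif1a itself, on another chromosome, went from 235 ± 21.5 to 153 ± 44.2 CPM (-0.62, adjusted p = 0.180). The rise was thus seen in copies with and without introns alike and not in the gene for which they are named.

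**Figure D3:**
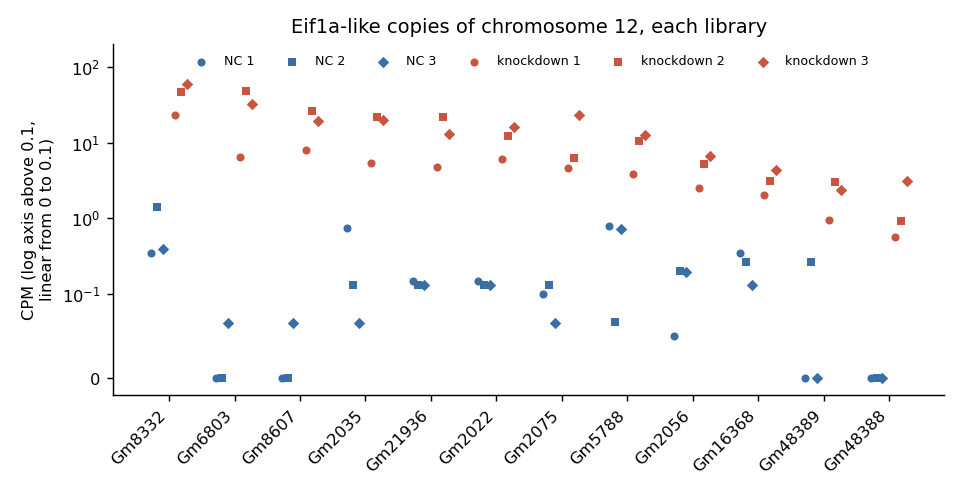
Level in CPM of the 12 Eif1a-like single-block genes of chromosome 12, on an axis that is linear below 0.1 and logarithmic above, with 1 symbol per library. All NC values are at most 1.39 CPM and all knockdown values at least 0.562 CPM, and within each copy every knockdown library is above every NC library.

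Other clusters of copies held higher members too. Tdpoz and Tcstv genes are known for expression at the cleavage stages that precede the blastocyst. Of 10 members related to Tdpoz genes on chromosome 3, which encode TRAF and POZ domain proteins, 7 were tested and 4 were higher. Tdpoz3 had 1 count in NC and a mean of 4.29 CPM in the knockdown (ratio 211, 95% counting interval 37.5 to 8370, edgeR adjusted p = 0.00475). Tdpoz2 and Gm9113 had log2 fold changes of 4.97 and 5.80, held in every fit, and Gm9141 had one of 4.08, lost without NC replicate 2 (adjusted p = 0.0567). Their summed level was 0.796, 2.52 and 2.30 CPM in NC against 15.1, 60.7 and 12.9 CPM in the knockdown. Of the 2 Tcstv members on chromosome 13, AF067061 had no NC count and was at least 33.6-fold higher (adjusted p = 0.0071). Tcstv1 had a log2 fold change of 4.56 (adjusted p = 0.0285) and lost its call without NC replicate 2, NC replicate 3 or knockdown replicate 2 (adjusted p up to 0.122).

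On chromosome 1, AC153137.1, a copy related to 4931428L18Rik, stood at 0.0995, 0.531 and 0.591 CPM in NC and at 15.4, 91.8 and 46.3 CPM in the knockdown (log2 fold change 7.003, edgeR adjusted p = 0.00165), with the call held in every fit. Gm6489 of the same family had no NC count and was at least 49.7-fold higher. Gm9458 had a log2 fold change of 2.58 and passed only without NC replicate 2 or knockdown replicate 1 (adjusted p up to 0.065). Their spliced relative went from 0.678 to 29.8 CPM (5.46, adjusted p = 0.00156). Of 4 relatives of Gm11232 elsewhere on chromosome 1, 3 were tested and higher. Gm47995 was at least 23.8-fold higher and Gm8947 higher by a ratio of 129 (95% counting interval 22.7 to 5117). The ratio was 47.2 for 3110040M04Rik (8.1 to 1900), whose call passed only without knockdown replicate 1 or 3 (adjusted p up to 0.0871). In total these 5 families held 31 members and 24 of the 127 higher calls. Without them, 103 of 1534 tested members were higher (6.71%) and 32 lower, with a median log2 fold change of 0.06.

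Processed pseudogenes were called higher more often in the bins of lower identity to their relative. Relatives were sought for transcripts of at least 200 bases, and a match had to cover at least 50% of the transcript. A spliced relative was found for 635 tested processed pseudogenes, with a median identity of 98.4%. Under 90% identity, 16 of 48 were higher (33.3%) and 0 lower, with a median log2 fold change of 1.13, while the relatives' median was -0.12. From 90 to under 95%, 11 of 74 were higher (14.9%) and 1 lower, with medians of 0.42 and -0.09. From 95 to under 98%, 10 of 160 were higher (6.25%) and 0 lower, with medians of 0.12 and -0.07. From 98 to under 99%, 2 of 122 were higher and 3 lower. At 99% or more, 2 of 231 were higher (0.866%) and 2 lower, with medians of -0.15 and -0.08. No test of the trend was made. The bins differ in how far copy and relative share read pairs. As said above, a member that reached the count filter only through the knockdown had to differ, and NC levels were not compared between bins. The part of either in the pattern was not tested.

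The distance between copy and relative narrowed in the same order. The median absolute difference in log2 fold change was 1.41 under 90% identity, then 0.508, 0.321 and 0.275, and 0.213 at 99% or more. As a description across genes, r between copy and relative was 0.21 over 46 pairs in the lowest bin, 0.08 from 90 to 95%, 0.55 over 159 pairs from 95 to 98%, and 0.74 and 0.68 above. Of 41 higher pseudogenes, 39 had a tested relative, and of these relatives 4 were higher, 3 lower and 32 not called. Their median identity was 92.0%. Of the 6 lower pseudogenes, 5 had a lower relative and 1 a relative that was not called, at a median identity of 98.8%.

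Of 8 copies of Gapdh, the glycolytic enzyme gene, 2 were higher and 1 lower, and they did not all follow this order. Gm21542, 74.3% identical to Gapdh, had a log2 fold change of 4.34. Gm7765, 84.1% identical, had one of -1.43 and Gm6498, 91.4% identical, one of -0.35, and neither of these was called. These copies were named after their values were seen. Gm13394, 99.9% identical to Gapdh, stood at 86.0, 37.5 and 69.1 CPM in NC and at 14.5, 25.4 and 9.75 CPM in the knockdown (log2 fold change -1.96, SE 0.434, edgeR adjusted p = 0.0179). The call was lost without NC replicate 1, NC replicate 3 or knockdown replicate 3 (adjusted p up to 0.0596). Gapdh itself went from 414 to 163 CPM (-1.34, adjusted p = 0.0653). Gm5335, 91.4% identical, had no count in NC and 9.42, 7.93 and 3.97 CPM in the knockdown, and was at least 123-fold higher (adjusted p = 0.00201), with the call held in every fit. In the windows printed above, Gm5335 has 4 differences from Gapdh in 60 bases and Gm13394 has 1.

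The copies of Kxd1, which encodes a subunit of the lysosome-positioning complex BORC, were among the most abundant pseudogenes. Gm12617 stood at 139, 325 and 282 CPM in NC and at 596, 1092 and 1162 CPM in the knockdown (248 ± 97.2 and 950 ± 309 CPM). The groups did not overlap, and the log2 fold change of 1.93 (SE 0.403, edgeR adjusted p = 0.0140) held in every fit. Kxd1, 86.8% identical, was at 1331 and 1467 CPM (0.14, adjusted p = 0.849). Gm11517, 94.8% identical to Kxd1, had a log2 fold change of 2.51 (adjusted p = 0.0453), with overlapping groups and a call that passed only without knockdown replicate 1 (adjusted p up to 0.159). Both copies were named after their values were seen, as were those that follow.

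Tdgf1 encodes Cripto, a co-receptor for Nodal expressed in the epiblast. Its copy Tdgf1-ps1, 98.8% identical, stood at 2.64, 2.39 and 4.72 CPM in NC and at 0.0469, 0 and 0.0602 CPM in the knockdown, lower by a ratio of 87.0 in pooled counts (95% counting interval 23.7 to 724, edgeR adjusted p = 0.00368), and the call held in every fit. Tdgf1 went from 182 to 5.03 CPM (log2 fold change -5.18). Actin copies also moved with their relatives. Gm12715, 99.6% identical to Actg1, had a log2 fold change of -1.63 (adjusted p = 0.017), and Gm15725, 91.8% identical to Actb, had one of -1.86 (adjusted p = 0.0196) beside -1.52 (adjusted p = 0.0210) for Actb. The call for Gm12715 was lost without NC replicate 3, knockdown replicate 2 or knockdown replicate 3 (adjusted p up to 0.0618), and that for Gm15725 without NC replicate 1, NC replicate 3 or knockdown replicate 3 (adjusted p up to 0.06).

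Other higher pseudogenes had relatives that were not called. Gm5435, 93.7% identical to the general transcription factor gene Gtf2a1, stood at 0.149, 0.863 and 0.197 CPM in NC and at 12.4, 16.9 and 13.96 CPM in the knockdown (log2 fold change 5.18, edgeR adjusted p = 0.00236, held in every fit), while Gtf2a1 had a log2 fold change of 0.31. Of 12 copies of Hmgb1, a chromatin protein gene, 2 were higher: Gm12490 had a log2 fold change of 4.36 (adjusted p = 0.00792) and Gm13228 one of 3.13 (adjusted p = 0.0129), against 0.57 (adjusted p = 0.224) for Hmgb1. Of 8 copies each of the cyclophilin A gene Ppia and the ribosomal protein gene Rpl15, 2 and 1 were higher. Gm33700, for which no spliced relative was found, had no NC count and stood at 1.22, 19.0 and 2.05 CPM in the knockdown, at least 115-fold higher (adjusted p = 0.0132, held in every fit). Knockdown replicate 2 was the highest of the 3.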

How the data were processed

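Per the submitters' processing notes, reads were handled with FastQC 0.11.9, fastp 0.20.1, STAR 2.7.6a, featureCounts 2.0.1, R 4.1.1 and DESeq2 1.34.0 on GRCm38. The authors deposited raw counts per exon line, with strand setting 2 and reads allowed to count for overlapping features, per the file headers. The command names no option for pairs aligned to several places, yet counts of some distant copies are equal. A pair across a junction therefore counts in several blocks of a spliced gene and only once in a single-block gene. The 842173 lines held 449500 distinct exons, merged here into 291424 blocks, each with the count of its most counted line. The design had assumed counts per gene, and the block counts were summed per gene instead.

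Genes were tested with edgeR 4.0.16 (R 4.3.3, filterByExpr, TMM, quasi-likelihood F-test, two-sided, Benjamini-Hochberg over 15619 genes, threshold 0.05), and the fit was tested on simulated data. SE is the log2 fold change over the root of F. DESeq2 1.42.0 was an alternative. CPM values are scaled to each library's effective size, its counts in tested genes times its TMM factor (0.891 to 1.149). Intervals and floors of 3 counts cover counting error only. Spliced relatives were the best match by blastn 2.17.0 among annotated transcripts. Each comparison gene was the multi-block gene nearest in total counts and exon length, taken once.

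The members and gene lists were chosen with earlier results of these data known. Named members were the 12 largest called rises and falls with a gene name, groups that do not overlap and at least 5 CPM (only 8 falls qualified), the 4 largest of each among unnamed genes and pseudogenes, called members and the 3 highest per kilobase of each role list, and the 5 highest per kilobase overall. Spliced parents are given beside their copies. One named member and one host gene are not reported here. Other genes are marked in the text as chosen after their values were seen, families included.

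Replicate numbers were checked for pairing, and not every same-numbered pair of libraries deviated together.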

Additional observations from a re-analysis of the deposited data

How the results depend on the processing

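The number of members called higher was 127 and of those called lower 32. Leaving out 1 library in turn gave 66 to 136 higher and 10 to 35 lower. A filter at 5 CPM left 48 higher and 16 lower, a limit of 200 counts 80 higher and named genes alone 27 higher and 12 lower. DESeq2 gave 55 lower (3.52%, against 9.54% of all genes tested) and the most counted block alone 49 lower (3.15%, against 7.35%). Leaving out members on exons of other genes gave 14 lower of 999 (1.40%, against 5.56%). With at least 1 CPM in NC, chosen after seeing the data, 39 of 1069 were higher (3.65%, against 5.13% of all genes within that limit). The median log2 fold change of the multi-block comparison genes, 0.40, ranged from 0.39 to 0.53 without 1 library, and was 0.27 with the filter at 5 CPM and 0.30 with the limit of 200 counts. The cause of these shifts was not tested, beyond the smaller number of genes or samples that some settings leave. With the replicate number as a block, 123 members were higher and 39 lower, and of the members named, Sox2 (adjusted p = 0.0523), Rn7sk (adjusted p = 0.0586), Tcstv1 (adjusted p = 0.0792) and Gm42992 (adjusted p = 0.0708) lost their edgeR calls and Cldn4 (adjusted p = 0.0313) gained one. The deviations of same-numbered libraries correlated at 0.27, 0.00 and 0.10, so the numbers were not taken as pairs, and not every library correlated best with its own number. For 58 named genes, 791 values were computed under the alternatives: 654 kept their side of the threshold, 105 lost the call, 8 gained it, 24 changed sign in genes that were not called, and 0 changed sign among calls. Low counts limit the smallest members, 403 of which were under 1 CPM in both groups.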
